A study of Mus musculus with 25 samples.

Results

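Genes that respond to glucocorticoid hormones or that encode metallothioneins, 10 in all with the receptor gene, were examined in the gastrocnemius muscle of SAMP8 mice, a senescence-accelerated line. They were taken by name from a fixed list of 10, all 10 were among the 8829 genes of the muscle table, and all 25 mice were used. All mice were male, of the same SAMP8 line, entered treatment at 8 months of age and survived to the end of it. The Control group (11 mice) received the corn oil vehicle by oral gavage, and the Thymol group (14 mice) received thymol, a phenol of thyme oil, at 20 mg/kg per day over 3 months. The authors gave gavage to both groups on most, but not all, days of each week. Each mouse gave 1 library of 3′ end mRNA sequencing (QuantSeq), which reads transcripts at their ends, so that long and short transcripts count alike and levels can be compared between genes. Mice are named by group and by the last number of their label.

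Corticosterone, the main glucocorticoid of mice, is released under stress and in a daily rhythm. In muscle it enters cells and binds the glucocorticoid receptor, which leaves a complex with heat-shock proteins, moves to the nucleus and switches on genes that hold its response element. Metallothioneins are small proteins that bind zinc and copper, and their genes answer both to metals, through the factor MTF-1 and metal response elements, and to glucocorticoids. Such genes are often read as a record of how much hormone a tissue has recently seen, and handling, gavage and sampling can each raise the hormone.

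The regulatory sequence upstream of 3 of these genes is shown because the 2 metallothionein genes varied together most closely and because Sgk1 held the full receptor element. The windows are the 250 bases before a RefSeq transcript start (GRCm38.p6), on the gene's strand from 5′ to 3′, with metal response element cores (TGCACNC or TGCGCNC, both strands) and the palindromic glucocorticoid response element (AGAACA, any 3 bases, then TGTTCT) in capitals.
Mt1, chr8:94178839-94179088, + strand: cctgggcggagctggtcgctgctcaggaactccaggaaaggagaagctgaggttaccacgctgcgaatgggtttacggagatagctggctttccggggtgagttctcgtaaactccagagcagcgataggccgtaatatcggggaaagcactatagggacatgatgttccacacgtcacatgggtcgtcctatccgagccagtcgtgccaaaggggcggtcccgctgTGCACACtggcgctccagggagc
Mt2, chr8:94172368-94172617, + strand: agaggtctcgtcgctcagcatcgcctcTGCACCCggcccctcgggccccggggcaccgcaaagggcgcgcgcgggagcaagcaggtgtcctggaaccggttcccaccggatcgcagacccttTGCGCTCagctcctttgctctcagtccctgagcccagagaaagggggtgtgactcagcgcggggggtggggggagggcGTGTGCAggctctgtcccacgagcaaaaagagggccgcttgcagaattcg
Sgk1, chr10:21993640-21993889, + strand: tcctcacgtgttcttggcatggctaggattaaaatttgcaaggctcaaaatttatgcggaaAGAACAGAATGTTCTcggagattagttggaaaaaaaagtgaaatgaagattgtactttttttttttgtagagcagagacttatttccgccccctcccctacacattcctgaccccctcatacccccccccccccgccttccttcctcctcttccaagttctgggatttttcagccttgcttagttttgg
The Mt2 window held 3 metal cores, which began 223, 128 and 50 bases before its RefSeq start. The Mt1 window held 1, which began 23 bases before its RefSeq start. These starts differ from the GENCODE gene starts, 94172664 for Mt2 and 94179082 for Mt1. Bases past the end of each window were not searched, so the counts are not those of the whole promoters. At least 1 such core was found in 21.4% of the 32851 RefSeq promoter windows of this length and at least 3 in 1.26%. Klf15 and Ddit4 each held 1 core. The full receptor element occurred in 1 of the 6 Sgk1 windows, where it began 189 bases before the start, and in 0.00913% of all windows. Promoter windows were found for 8 of the 10 genes, and none of the other windows held the full element. A match describes these letters only, and no binding was measured.

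The level of the genes differed widely. Klf9, a zinc-finger transcription factor induced by the receptor, was the most abundant with a mean of 8.88 log2 CPM (CPM, reads scaled to a common library size, SD 0.19, n = 25), and Klf15, a related factor that drives amino acid breakdown in muscle, was the least abundant with 2.52 (SD 0.59). Tsc22d3, which encodes the anti-inflammatory mediator GILZ, had 7.18 log2 CPM (SD 0.23), and Sgk1, a kinase that regulates ion transport and cell survival, had 6.40 (SD 0.36). Nr3c1, the receptor itself, had 5.85 (SD 0.17), Zbtb16, the transcriptional repressor PLZF, had 5.51 (SD 0.34), and Mt1 had 5.45 (SD 0.64). Mt2 had 4.62 (SD 0.83), Fkbp5, a co-chaperone that lowers the receptor's affinity for hormone, had 4.49 (SD 0.54), and Ddit4, the mTORC1 inhibitor REDD1, had 3.99 (SD 0.94). Within mice, Klf9 exceeded Tsc22d3 and Tsc22d3 exceeded Sgk1 in 25 of 25 animals. The neighbours Nr3c1 and Zbtb16, Zbtb16 and Mt1, Mt2 and Fkbp5, and Fkbp5 and Ddit4 differed by less than 1 SD of their difference between mice. Between the highest and the lowest mouse the range was 30.8-fold for Ddit4, 11.9-fold for Mt2, 5.14-fold for Mt1, 4.90-fold for Fkbp5 and 4.86-fold for Klf15. It was 3.33-fold for Sgk1, 2.83-fold for Zbtb16, 2.07-fold for Tsc22d3, 2.04-fold for Klf9 and 1.79-fold for Nr3c1. Control 19 was the highest mouse for every gene except Nr3c1, and without it the SD was 0.75 for Ddit4, 0.69 for Mt2 and 0.13 for Klf9. The shares of all genes that follow include this mouse. Among all genes of the table, 0.804% had an SD between mice at least as wide as that of Ddit4, 1.18% as that of Mt2 and 3.18% as that of Mt1. For Nr3c1 this share was 83.6% and for Klf9 78.1%. Among genes within 0.5 log2 of the same level it was 53.8% for Nr3c1, near the middle, 25.6% for Klf9 and 0.341% for Ddit4. The genes were covered by 14 to 5746 reads per mouse, and the counting SD of the median mouse was 0.13 log2 for Ddit4, 0.11 for Mt2 and 0.08 for Mt1, well below the spread between mice. For Klf15, with a median of 38 reads, the counting SD was 0.23 beside an SD of 0.59 between mice.

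The library of Control 19 stood apart before any group was compared. It had the highest value of all 25 mice for 9 of the 10 genes, all except Nr3c1, where it ranked 20. Over all 8829 genes, 627 (7.1%) were highest in Control 19. The remaining gene, Nr3c1, was highest in Control 31. Control 18 was highest for more genes of the table, 858 (9.72%). Compared with the mean of the other 24 mice, Control 19 had 7.98-fold more Ddit4 mRNA, 5.38-fold more Mt2, 3.15-fold more Fkbp5, 2.87-fold more Mt1 and 2.64-fold more Klf15. The excess was 1.94-fold for Sgk1, 1.83-fold for Zbtb16, 1.62-fold for Klf9 and 1.54-fold for Tsc22d3, while Nr3c1 was at 0.930 of the others' mean. Although its fold was modest, Klf9 lay 5.28 SDs of the other mice above their mean, the farthest of the 10. The median difference was 1.18 log2 for the 10 genes and 0.013 for all genes, and 134 genes of the table (1.52%) were at least 1 log2 higher in this mouse, 5 of them among the 10. The same 9 genes were counted when values were quantile normalized or when each library was centred on its median.

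**Figure D1:**
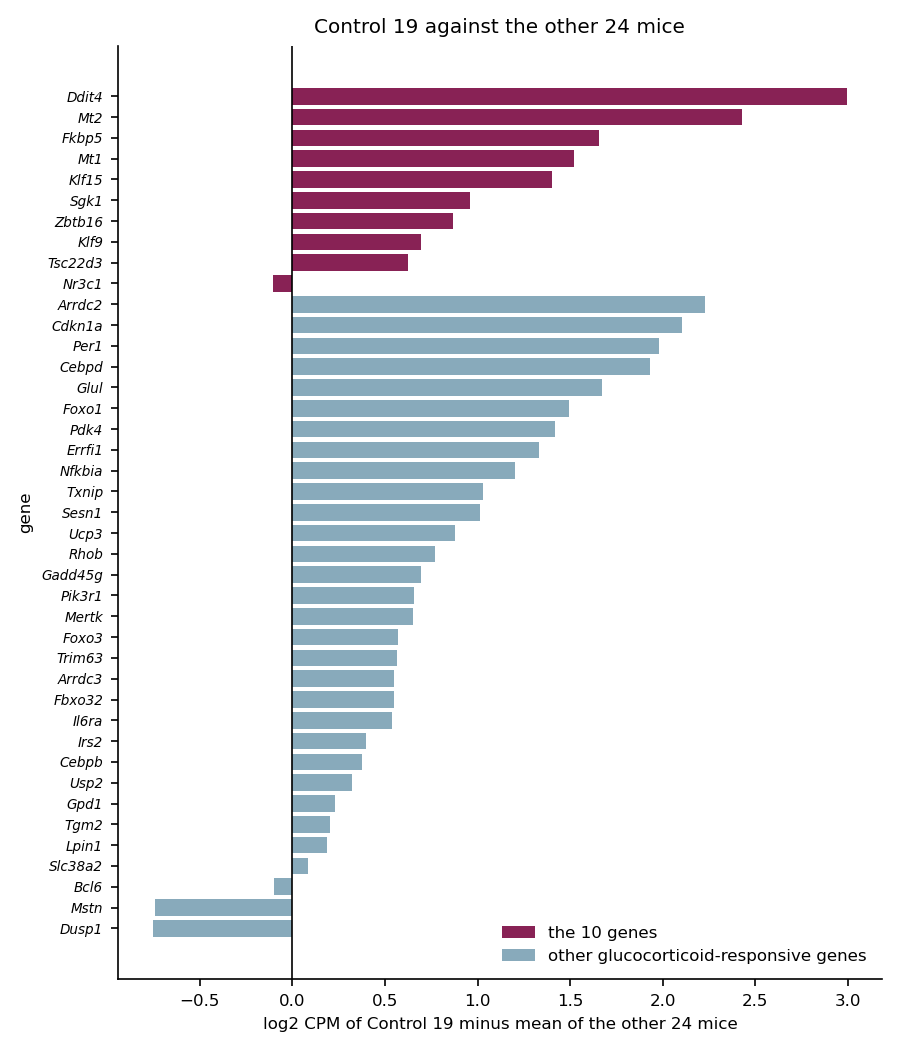
Difference in log2 CPM between Control 19 and the mean of the other 24 mice, for the 10 genes (dark bars) and 31 other glucocorticoid-responsive genes (light bars). All dark bars except Nr3c1 point to higher values, up to 3.00 for Ddit4, and among the light bars Bcl6, Mstn and Dusp1 point to lower values.

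The excess extended to other genes known to respond to the hormone. Of 31 such genes in the table (36 listed), 28 were above the mean of the other mice in Control 19 and 18 (58.1%) were highest there, against 7.1% of all genes. They included Per1, a clock gene with direct receptor control (3.94-fold), Cebpd (3.81-fold), Glul, glutamine synthetase (3.18-fold), Foxo1, a driver of muscle protein breakdown (2.81-fold), and Pdk4, which restrains glucose oxidation (2.67-fold). The muscle ubiquitin ligases Trim63 and Fbxo32 were 1.48-fold and 1.46-fold above the others. Dusp1, a phosphatase that the receptor also induces, went the other way at 0.592 of the others' mean, as did Mstn, the muscle growth inhibitor myostatin, at 0.599. These genes, and those named for this mouse from the other lists, were chosen after their values were seen. Of 15 genes of the receptor complex and of local steroid activation, 3 were highest in Control 19, among them Hsd11b1, which regenerates active hormone inside cells (1.99-fold), and H6pd, which supplies its cofactor (1.61-fold). Of 14 clock genes 1 was highest there, of 12 immediate-early genes 0, and of 13 genes of amino acid catabolism 1, Gpt2. The immediate-early gene Fos was lowest of all mice in Control 19, at 0.083 of the others' mean (difference -3.59 log2). Its level there was -1.33 log2 CPM, where reads are few. Jun was second highest in Control 19 (1.56-fold), and the other immediate-early genes lay on both sides of the others' mean.

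Markers of other cells and the depth were measured in the same mice. In Control 19, 5 of 8 adipocyte markers (62.5%) were highest, with Adipoq 8.32-fold and Cfd 10.8-fold above the other mice. The summed level of the 8 adipocyte markers in the table (10 listed, Lep and Ucp1 not among them) ranged from 304 to 2410 CPM in Control mice, with Control 19 at 2410, and from 324 to 2170 CPM in Thymol mice. The 5 red blood cell genes summed to 734 CPM in Control 19, second of the 25 mice, over a range of 278 to 774 CPM in Control and 256 to 658 CPM in Thymol mice. No marker of either list had 0 reads in any mouse. The leukocyte markers in the table, 7 of 13 (Ptprc, Adgre1, Cd3e, Cd79a, S100a8 and S100a9 were not among them), summed to 77.1 to 390 CPM in Control and 86.6 to 282 CPM in Thymol mice, with Control 19 at rank 11. The mean centred log2 level of a list, called its index, was lowest of all mice in Control 19 for the 8 fibroblast markers. All 13 muscle fibre markers were detected in every mouse, as the tissue label implies, with a summed level of 141000 to 189000 CPM. In whole muscle, fewer cells of a type and less RNA per cell cannot be told apart. With the adipocyte index regressed out of every gene, Control 19 was highest for 7 of the 10 genes, against 560 of all genes (6.34%), and no longer for Mt1 and Zbtb16. With the red blood cell index regressed out it was highest for 8 genes (5.41% of all genes), and with the fibroblast index for 9 (7.45% of all genes). Control 19 lay at or next to an extreme of all 3 indices, so it helped to set these slopes. These 3 regressions were added after the data were seen. The depth of this library, its reads in the genes of the table, ranked 18 of the 25. Its feeding state, hormone level and time of sampling were not measured in these data.

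The values in single mice are given gene by gene, by role. Mt1 ranged in Control mice from 4.54 log2 CPM in Control 1 to 6.91 in Control 19 with a median of 5.13, and in Thymol mice from 4.79 to 6.70 with a median of 5.27. Mt2 ranged from 3.92 to 6.95 in Control mice (median 4.39) and from 3.37 in Thymol 24 to 6.09 in Thymol 20 (median 4.43). For both metallothioneins most mice lay low and a few stood high, namely Control 19, Control 18, Thymol 11 and, for Mt2, Thymol 20, so the high values came from both groups. Mt1 had more reads than Mt2 in 23 of 25 mice. The ratio of their reads had a median of 1.81 and was 0.952 in Thymol 20, 0.971 in Control 19 and 3.35 in Thymol 24. The 2 genes lie 5513 bases apart on chromosome 8 of GRCm38 (Mt2 from 94172664 to 94173568, Mt1 from 94179082 to 94180327, both on the plus strand, GENCODE M21), and they shared 0 words of 31 bases in the last 400 bases of their transcripts. An annotated gene, Gm45774, overlaps Mt2 on the other strand, and since the strand used in counting is not given in the sources used here, their reads cannot be told apart.

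Of the genes that feed back on the hormone's action, Fkbp5 ranged from 3.84 to 6.07 log2 CPM in Control mice (median 4.35) and from 3.78 to 5.17 in Thymol mice (median 4.29). Tsc22d3 ranged from 6.80 to 7.77 (median 7.26) in Control and from 6.73 to 7.50 (median 7.10) in Thymol mice. The receptor gene Nr3c1 ranged from 5.39 in Control 18 to 6.23 in Control 31 (median 5.89) in Control mice and from 5.59 to 6.08 (median 5.86) in Thymol mice. The groups overlapped for all 3 genes, and apart from Control 19 the high Fkbp5 mice were spread over both groups. Fkbp5 lies on chromosome 17 from 28399094 to 28517527 on the minus strand and overlaps 2 annotated genes on each strand, and Tsc22d3 lies on chromosome X from 140539528 to 140600659 on the minus strand without overlap.

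Among the transcription factors, Klf9 ranged from 8.69 to 9.55 log2 CPM in Control mice (median 8.86) and from 8.52 to 9.13 in Thymol mice (median 8.88). Klf15 ranged from 1.79 to 3.87 (median 2.34) in Control and from 1.59 to 3.42 (median 2.45) in Thymol mice. Both genes were lowest in Thymol 34 and highest in Control 19. Zbtb16 ranged from 4.85 in Control 1 to 6.35 (median 5.51) in Control mice and from 5.11 to 6.01 (median 5.43) in Thymol mice, whose values lay inside the Control range. In GRCm38, Klf9 lies on chromosome 19 from 23141226 to 23168134 (plus strand, with the small RNA gene Mir1192 inside it), Klf15 on chromosome 6 from 90462576 to 90475238 (plus strand) and Zbtb16 on chromosome 9 from 48654297 to 48836222 (minus strand).

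Of the signalling genes, Sgk1 ranged from 5.58 in Control 15 to 7.32 log2 CPM (median 6.53) in Control mice and from 5.89 to 6.81 (median 6.35) in Thymol mice. Ddit4 ranged from 1.92 in Control 15 to 6.87 (median 4.10) in Control mice and from 2.35 to 4.99 (median 3.81) in Thymol mice. Control mice thus held both the lowest and the highest value of each gene, and for each gene the Control median exceeded the values of 12 of the 14 Thymol mice. Both lie on chromosome 10 of GRCm38, Sgk1 from 21882184 to 21999903 (plus strand) and Ddit4 from 59949669 to 59951834 (minus strand).

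**Figure D2:**
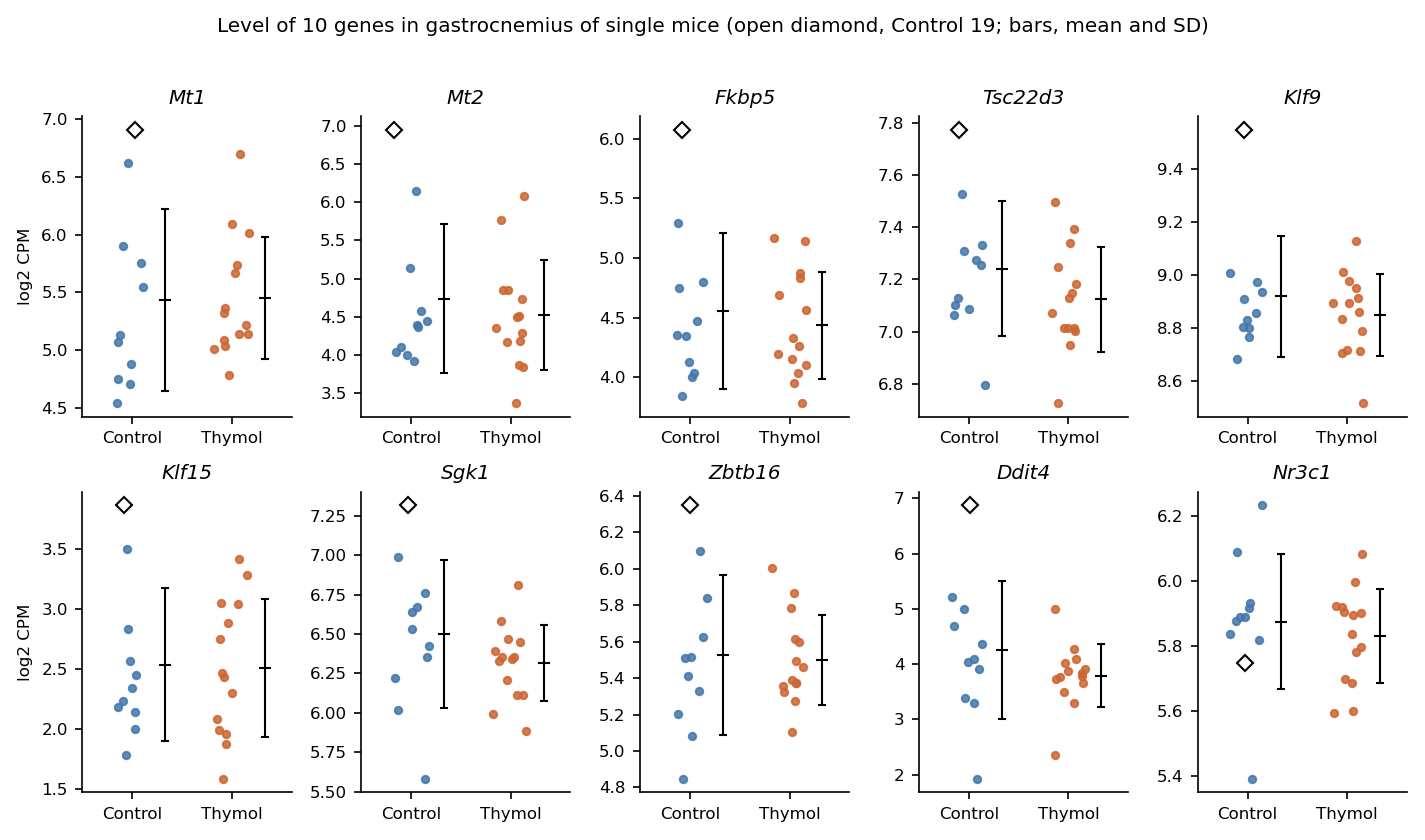
Log2 CPM of each gene in each mouse, Control (11 mice) and Thymol (14 mice), with the mean and SD of each group beside the points and Control 19 as an open diamond. The diamond is the top point for every gene except Nr3c1, and the groups overlap for all 10 genes.

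Whether thymol changed these genes was tested in a linear model over all 8829 genes (limma, two-sided, Benjamini-Hochberg adjusted across the table). Of the 10 genes, 0 had an adjusted p under 0.05 and 0 an unadjusted p under 0.05, and in the table these shares were 0.0% and 3.53% (312 genes with limma, and 0 and 304 genes with voom on the recovered reads). The point estimate was lower with thymol for 9 of the 10 genes, all except Mt1, against 50.4% of all genes, and the median log2 fold change was -0.09 for the 10 genes and -0.0014 for all genes. The largest estimate was that of Ddit4, at -0.46 log2 (95% interval -1.15 to 0.22, limma p = 0.174, adjusted p = 0.99988). Its group means were 4.25 ± 1.26 log2 CPM (SD) over the 11 Control and 3.79 ± 0.57 (SD) over the 14 Thymol mice. Sgk1 had a log2 fold change of -0.19 (interval -0.45 to 0.08, limma p = 0.165). Without Control 15, the lowest mouse for both, the unadjusted limma p was 0.0245 for Ddit4 (log2 fold change -0.70) and 0.0222 for Sgk1 (-0.28), with adjusted p of 0.99978. For Tsc22d3 the log2 fold change was -0.12 (interval -0.29 to 0.06), for Klf9 -0.07 (interval -0.22 to 0.08) and for Nr3c1 -0.04 (interval -0.19 to 0.10). These 3 genes vary little between mice, so their intervals bound a change most tightly. The intervals were wider for Mt1 (log2 fold change 0.01, interval -0.46 to 0.49), Mt2 (-0.21, interval -0.82 to 0.41), Fkbp5 (-0.12, interval -0.53 to 0.29), Klf15 (-0.03, interval -0.49 to 0.43) and Zbtb16 (-0.03, interval -0.29 to 0.23).

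Without Control 19 the lean toward lower values was gone. For the genes highest in that mouse, leaving it out could only raise the estimate, so the direction of the shift was fixed in advance. The count of genes lower with thymol went from 9 to 5 of 10, and the signs of Mt2 (0.01), Fkbp5 (0.03), Klf15 (0.11) and Zbtb16 (0.05) turned. The estimate of Ddit4 was then -0.20 (95% interval -0.77 to 0.36) and that of Sgk1 -0.10 (interval -0.35 to 0.14), and the smallest limma p among the 10 genes was 0.388. Without Control 18, Control 19 and Thymol 20, the libraries farthest out on the leading principal components, 4 of 10 genes were lower and the median was 0.04. With the adipocyte index as a covariate all 10 were lower.

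**Figure D3:**
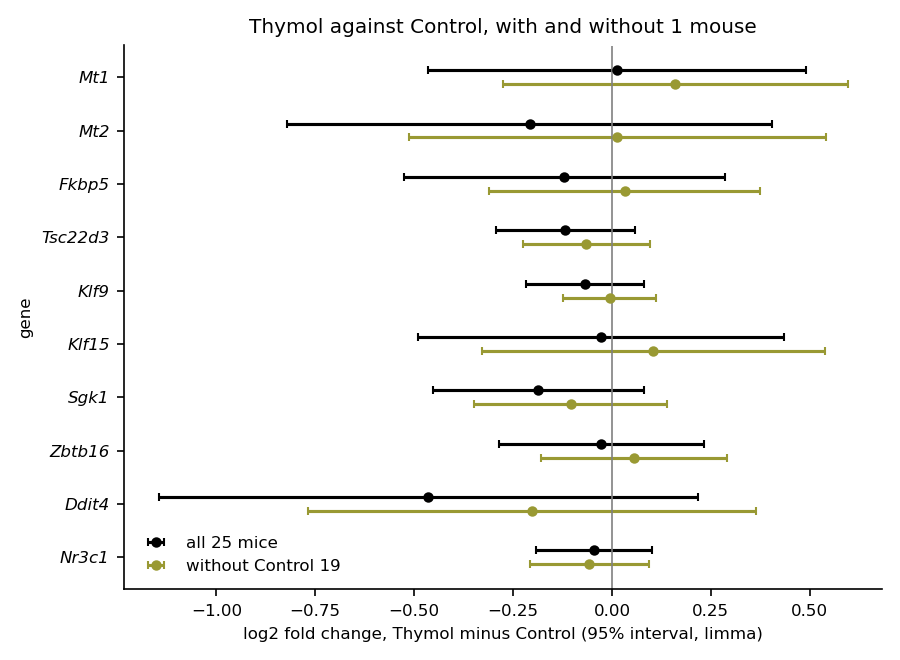
Log2 fold change, Thymol minus Control, of each gene with its 95% interval from limma, in all 25 mice (black) and without Control 19 (olive). All intervals include 0, and without Control 19 the estimates of Mt2, Fkbp5, Klf15 and Zbtb16 lie above 0.

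Of 31 other glucocorticoid-responsive genes, 25 were lower and 6 higher with thymol (median log2 fold change -0.09) and 0 had an unadjusted p under 0.05 (limma). Without Control 19, where 18 of these genes were highest, 16 were lower and 15 higher (median -0.02), so this lean too rested on that mouse (list counts without it were added after the data were seen). For those 18 genes leaving out the highest Control mouse could only raise the estimate, so the direction of that shift was fixed in advance. In all mice the smallest p were those of Cebpb, a factor of the hormone response (log2 fold change -0.30, p = 0.0511), and Sesn1, a stress-inducible inhibitor of mTORC1 (-0.39, p = 0.0549). In the receptor complex and steroid activation list, 1 of 15 genes had an unadjusted p under 0.05, Nrip1, a corepressor of nuclear receptors, at 6.43 ± 0.26 log2 CPM (mean and SD) for Control and 6.22 ± 0.20 for Thymol (log2 fold change -0.21, limma p = 0.0234), and without Control 19 the list had 0 such genes. Of 14 genes of zinc and metal handling 0 had an unadjusted p under 0.05, with Slc39a13, a zinc transporter, at -0.24 (p = 0.0634) and Slc30a6, another zinc transporter, at 0.26 (p = 0.196), and without Control 19 Slc39a13 was the 1 gene of this list under 0.05. Mtf1, the metal sensor that drives the metallothioneins, named for that role after its values were seen, had a log2 fold change of 0.00 (limma p = 0.963). Among 13 genes of amino acid catabolism, part of it under Klf15, the smallest p were those of Aldh6a1 (-0.14, p = 0.118) and Dbt (0.12, p = 0.274), and among 14 clock genes those of Hlf (0.09, p = 0.432) and Bhlhe40 (-0.09, p = 0.510). Of 12 immediate-early genes, 11 were lower with thymol and 1 had an unadjusted p under 0.05, Jund, a subunit of AP-1 (log2 fold change -0.34, limma p = 0.00326). This lean did not rest on Control 19. Without it all 12 were lower (median -0.28), and Fosl2 and Jund had an unadjusted limma p under 0.05. Of the marker lists of fibres and other cells, 1 gene had an unadjusted p under 0.05, the endothelial receptor Tie1 (log2 fold change -0.27, limma p = 0.0194), and all 8 slow-fibre markers and all 5 red blood cell genes had estimates below 0, the latter 4 of 5 without Control 19. Thymol 20 had by far the lowest slow-fibre index, at -5.12, beside medians of 0.333 in Control and -0.203 in Thymol mice. The slow-fibre markers were not counted without Thymol 20, so this count may rest on that mouse. Adipocyte markers were higher with thymol for 5 of 8, and for all 8 without Control 19. Endothelial markers were lower for 8 of 10, and for all 10 without it. No gene of these lists had an adjusted p under 0.05.

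The spread between mice was compared by fitting each mouse's absolute distance from its group median (limma over all genes). An adjusted p under 0.05 was reached by 0.0% of all genes and by 0 of the 10, and an unadjusted p under 0.05 by 3.06% of all genes and by 2 of the 10. Control mice were farther from their median for 9 of the 10 genes, all except Klf15, against 54.9% of all genes. The 2 genes were Ddit4, with an SD of 1.26 in Control and 0.57 in Thymol mice (limma p = 0.0203, adjusted p = 0.9996), and Sgk1, with 0.47 and 0.24 (limma p = 0.0491, adjusted p = 0.9996). The ratio of the Control SD to the Thymol SD had a median of 1.48 over the 10 genes and 1.07 over all genes. Without Control 19 the ratio of Ddit4 was 1.67 and that of Sgk1 1.68, the limma p were 0.0747 and 0.121, Control mice were farther out for 5 of the 10 genes against 52.1% of all genes, and the median ratio was 1.12 against 1.04. Without Control 15, which had the lowest Sgk1 and Ddit4, the limma p were 0.0516 for Ddit4 and 0.164 for Sgk1.

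The 10 genes varied together between mice. Of their 45 pairs, 37 had a positive Pearson r across the 25 mice, the median r was 0.40, and 17 pairs passed a two-sided permutation test with Benjamini-Hochberg adjustment over the 45 pairs, all of them positive. Among all 38971206 pairs of genes in the table the median r was -0.001, and 2.17% had an absolute r of at least 0.494, the smallest among the 17 pairs. This co-variation rested for the most part on 1 animal. Without Control 19 the median r was 0.12, 29 pairs were positive, 2 of the 17 pairs passed the test, and r was lower for all 17. An absolute r of at least 0.494 was then reached by 3 of the 45 pairs, against 2.45% of all pairs of genes. With the Spearman rank correlation, which gives a single extreme mouse less weight, 3 pairs passed and the median rho was 0.24. Without Control 18 the count was 11, and without both of these mice and Thymol 20 it was 1, the pair of the metallothioneins. Within the Control group the median r was 0.64 and 20 pairs passed, but without Control 19 the median over the other 10 Control mice was 0.33 and 1 pair passed. Within the Thymol group, which does not include that mouse, the median r was 0.05 and 3 pairs passed. The share over all pairs of genes was not computed within single groups. With the adipocyte index regressed out of both genes 16 pairs passed, and with the depth regressed out 20.

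**Figure D4:**
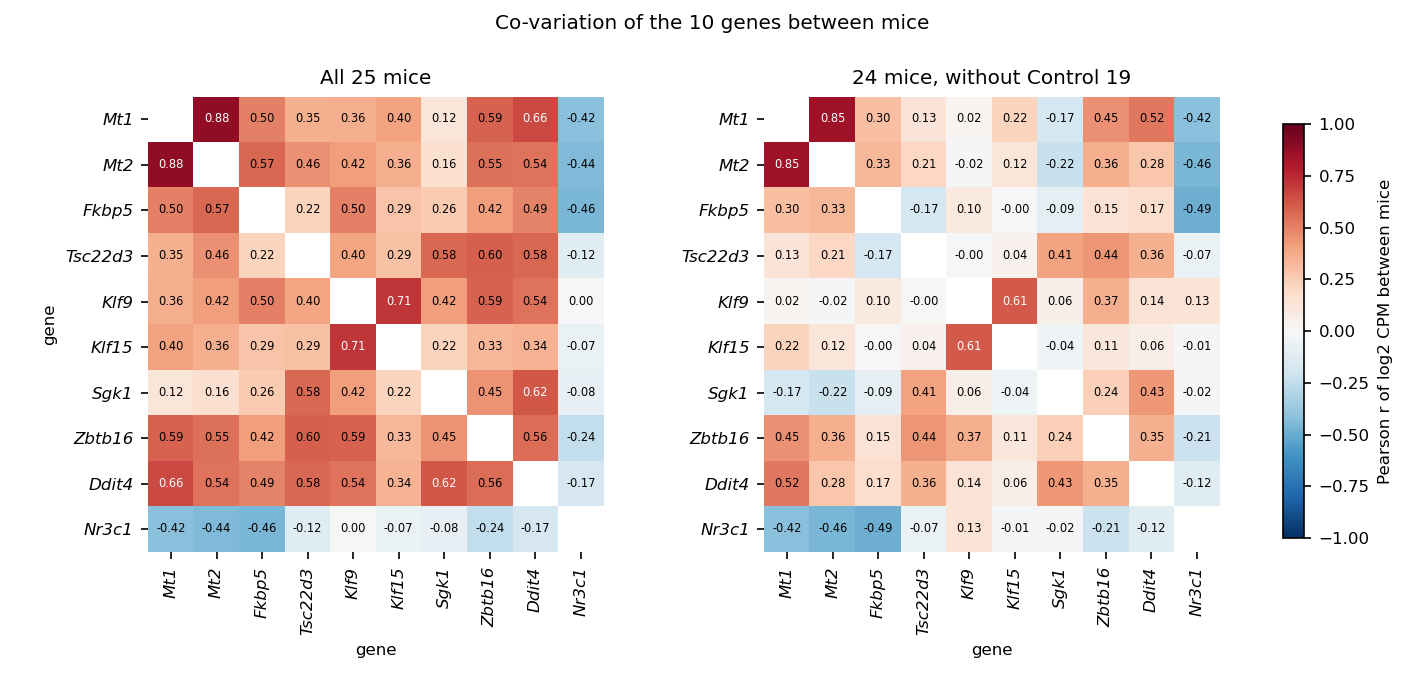
Pearson r of log2 CPM for each pair of the 10 genes, in all 25 mice (left) and without Control 19 (right), from -1 (blue) to 1 (red). The pairs Mt1 with Mt2 and Klf9 with Klf15 keep their colour on the right (0.85 and 0.61), most of the others pale, and Nr3c1 is negative with the metallothioneins and Fkbp5 in both.

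The pairs that passed in all mice, by rank correlation and within the Thymol group were the same 3. The first was Mt1 with Mt2, with r = 0.88 and rho = 0.87 (permutation p = 1e-05 for each, the smallest that 100000 permutations can give, adjusted p = 0.000225 and 0.00045), r = 0.85 without Control 19, 0.95 within Control and 0.80 within Thymol mice, and 0.82 without the 2 mice farthest from the median. The second was Klf9 with Klf15, with r = 0.71 (permutation p = 1e-05, adjusted p = 0.000225), rho = 0.58 (permutation p = 0.00286, adjusted p = 0.0429), r = 0.61 without Control 19 (adjusted permutation p = 0.0256), and 0.54 without the 2 mice farthest from the median. The third was Tsc22d3 with Zbtb16, with r = 0.60 (permutation p = 0.00186, adjusted p = 0.0159), rho = 0.60 (permutation p = 0.00195, adjusted p = 0.0429) and 0.45 without the 2 farthest mice, and it did not pass without Control 19 (r = 0.44, adjusted permutation p = 0.200). A pair that leaned on the Control group was Sgk1 with Ddit4, with r = 0.62 over all mice (adjusted permutation p = 0.0159), 0.84 within Control and -0.21 within Thymol mice, and 0.20 without Control 15 and Control 19, and this difference between the groups was not tested. None of the 9 pairs of the receptor gene passed, and its r with Klf9, Klf15, Sgk1 and Tsc22d3 lay between -0.12 and 0.00. Its lowest r was -0.46 with Fkbp5 (permutation p = 0.0234, adjusted p = 0.0555), -0.44 with Mt2 (permutation p = 0.0308, adjusted p = 0.0660) and -0.42 with Mt1 (permutation p = 0.0356, adjusted p = 0.0728). Without Control 19 these values were -0.49, -0.46 and -0.42, and without the 2 mice farthest from the median -0.34, -0.24 and -0.37. For Mt1 those 2 mice were Control 19 and Thymol 11, so Control 18 stayed in. Within Thymol mice r was -0.34 with Fkbp5, -0.18 with Mt2 and -0.09 with Mt1. Within Control mice it was -0.57, -0.65 and -0.63. Control 18, which had the lowest Nr3c1, also had the second highest Mt2 and Fkbp5.

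The relation of each gene with depth and 8 marker and response indices was tested in 90 comparisons, of which 2 passed (two-sided permutation test, Benjamini-Hochberg over the 90). The share of all genes of the table that relate as strongly to these indices was not computed. Mt1 rose with the leukocyte index (r = 0.64, permutation p = 0.00077, adjusted p = 0.0428, and rho = 0.69, permutation p = 0.00011, adjusted p = 0.0099), with r = 0.64 within Control and 0.64 within Thymol mice. Without Control 19 this r was 0.72 (adjusted permutation p = 0.0081), and without the 2 mice farthest from the median index it was 0.53. For Mt2 the corresponding r was 0.57 (permutation p = 0.00391, adjusted p = 0.0880), 0.70 without Control 19 (adjusted permutation p = 0.0153) and 0.33 without the 2 mice farthest out, on which it thus partly rested. Control 18 had the highest leukocyte index of all mice and the third highest Mt1. Sgk1 rose with the red blood cell index (r = 0.61, permutation p = 0.00095, adjusted p = 0.0428), but rho was 0.45 (adjusted permutation p = 0.302) and r without Control 19 was 0.50 (adjusted permutation p = 0.218). Mt1 with the adipocyte index had r = 0.60 (adjusted permutation p = 0.0585). Without Control 19 both metallothioneins also passed with the fibroblast index (r = 0.64 for Mt1 and 0.63 for Mt2, adjusted permutation p = 0.0261 and 0.0362), but over all mice these r were 0.34 and 0.25 (adjusted permutation p = 0.570 and 0.580), and without the 2 mice farthest out they were 0.19 and 0.07. No gene passed with depth (r from -0.28 to 0.28), with the clock index (r from -0.30 to 0.44) or with the immediate-early index (r from -0.32 to 0.28). The part of these other cells in the metallothionein values was not tested.

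**Figure D5:**
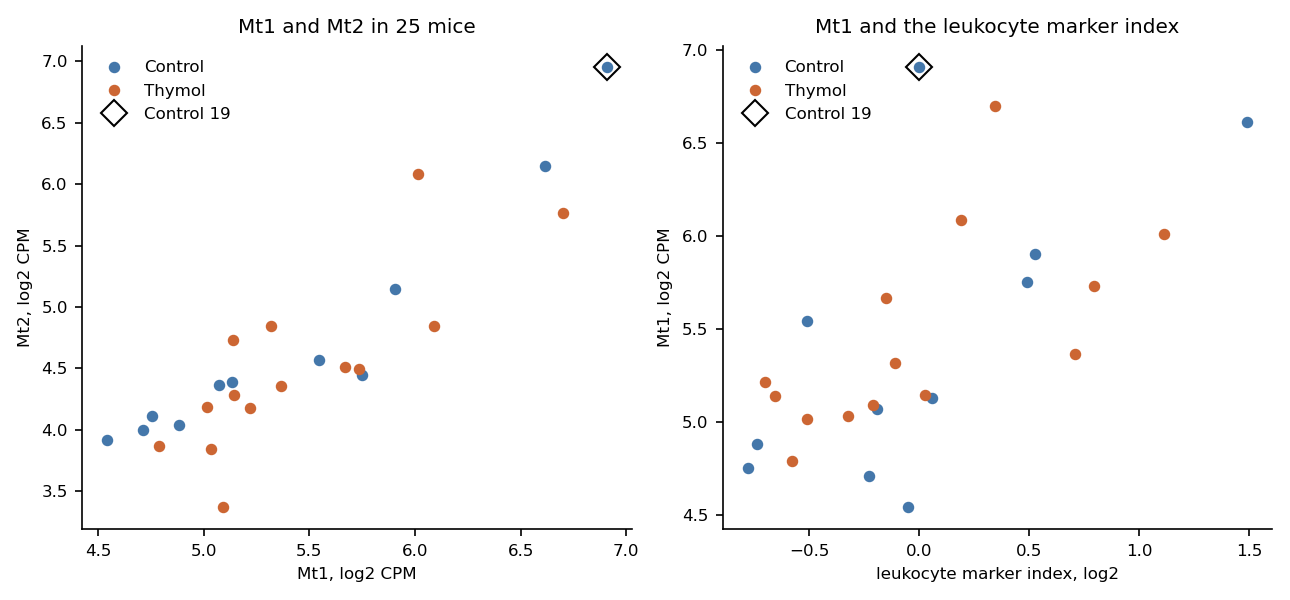
Mt2 against Mt1 in log2 CPM (left) and Mt1 against the leukocyte marker index (right) in single Control and Thymol mice, with Control 19 in a diamond. Mt1 and Mt2 lie along 1 band that holds mice of both groups, and in the right panel Control 19 lies above the other mice at an index near 0.

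For each gene the 2 genes outside the list with the most similar pattern were taken as those with the highest Pearson r over the 25 mice after group means were removed, among 8819 genes, and these r ranged from 0.65 to 0.81 with no test. Mt1 was closest to Pttg1ip (0.80) and Glul (0.78), and Mt2 to Glul (0.74) and Atosb (0.73), so that both metallothioneins shared glutamine synthetase as a neighbour. Ddit4 was closest to Zfp36, an mRNA decay factor (0.81), and Rhob, a small GTPase (0.79). Klf9 was closest to Tns2 (0.77) and Tfcp2l1 (0.76), and Klf15 to Slc27a1, a fatty acid transporter (0.76), and Pim3, a kinase (0.73). Tsc22d3 was closest to Hnrnpab (0.74) and Slc7a8 (0.72), and Zbtb16 to Pkp4 (0.72) and Sult1a1 (0.71). Fkbp5 was closest to Runx1t1 (0.70) and Otud5 (0.69), Sgk1 to Smyd2 (0.67) and Irf2bp2 (0.65), and Nr3c1 to Ccdc43 (0.71) and Tpp2 (0.71). Without Control 19 these r ranged down to 0.50, for Fkbp5 with Otud5, whereas those of Mt1 with Pttg1ip (0.82), Mt2 with Atosb (0.79) and Nr3c1 with Ccdc43 (0.71) stayed close to their value in all mice. The r of Glul, which was highest in Control 19, fell to 0.69 with Mt1 and 0.60 with Mt2.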

How the data were processed

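The authors aligned QuantSeq reads with STAR 2.5.3 against GRCm38, obtained gene counts from HTSeq 0.6.1, removed genes with few reads and scaled the libraries with TMM. Deposited values are log2 CPM with about 2 reads added, and every column of the table was used. Whole reads were recovered for 100.0% of the 220725 values (tolerance 0.02), giving 4463818 to 9463418 reads per mouse. This sum, called the depth, covers only the genes of the table and not reads of genes removed before.

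Groups were compared with limma 3.58.1 (R 4.3.3) on the deposited log2 values, and correlations with 100000 permutations (numpy 2.4.6, scipy 1.17.1). Both were tested on simulated data. The genes, gene lists and tests were chosen with earlier results of these data known. By the rule for names, genes outside the list were the 2 closest in pattern to each gene and, for each list, those with an unadjusted p under 0.05 or else the 2 with the smallest p. Genes named for Control 19 or as markers there, and Mtf1, are outside this rule and were chosen after their values were seen. Positions come from GENCODE M21. Each library is 1 mouse, and mice that died earlier are not included. Intervals and counting SDs cover the spread between mice and counting error only. Alternatives were other scalings, filters, moderation, covariates, voom on the recovered reads, and each mouse left out.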

Additional observations from a re-analysis of the deposited data

How the results depend on the processing

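Under every alternative run, 0 genes reached an adjusted p below 0.05 for thymol and 0 for the spread, each mouse left out included. Genes lower with thymol numbered 4 of 10 without Control 18, Control 19 and Thymol 20 and 5 to 10 when 1 mouse was left out, the lowest without Control 19. Pairs that passed numbered 1 without the same 3 mice, 3 within Thymol mice, 3 by Spearman rank, 1 within Control mice without Control 19 (added after the data were seen), and 2 to 22 when 1 mouse was left out, with 2 without Control 19 and 11 without Control 18. Relations with depth and indices that passed numbered 1 by Spearman rank and 4 without Control 19, both added later.

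Signs of log2 fold changes turned in several settings, all with an unadjusted limma p over 0.3. Without the 3 mice Mt2 was 0.0751, Fkbp5 0.1567, Klf9 0.0131, Klf15 0.1933 and Zbtb16 0.09. With sample weights Klf15 was 0.0769 and Zbtb16 0.0137, and Klf15 was 0.0121 with the slow-fibre index. With the immediate-early index Mt1 was -0.1068 and Klf15 0.1008, and with the adipocyte index Mt1 was -0.0044. Leaving out 1 mouse gave -0.0826 to 0.1602 for Mt1, -0.3276 to 0.0137 for Mt2, -0.191 to 0.032 for Fkbp5, -0.1028 to 0.1051 for Klf15 and -0.0952 to 0.0548 for Zbtb16. Within Thymol mice r was -0.0904 for Fkbp5 with Klf9, -0.1079 for Klf9 with Ddit4 and -0.2131 for Sgk1 with Ddit4. The cause was not tested.

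With a replicate block on the leading label number, which different animals share, Mt1 was -0.0494, Klf15 0.1311 and Sgk1 -0.3373 (unadjusted limma p = 0.0119), and the count of genes with an adjusted p under 0.05 stayed 0. After group means were removed from every gene, libraries of different groups with the same number correlated by -0.002 on average over 9 pairs (from -0.18 to 0.10). The 145 pairs with unlike numbers correlated by 0.0. Removing the group means holds the mean over all such pairs near 0, so the value of the unlike pairs is not an independent reference. The median counting SD was largest for Klf15 (0.23 log2), and beside the SD between mice it was 0.07 of 0.17 for Nr3c1.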
